A study of Mus musculus with 15 samples.

Results

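Transcript levels at 405 min after withdrawal of the stabilizing ligand Shield-1 (S1) were compared with those at 135 min, in 7 of the 15 mRNA-seq samples of the series. All samples came from NIH3T3 cells, a mouse fibroblast line, that stably expressed DD-sfGFP, a destabilizing domain (DD) derived from FKBP and fused to superfolder GFP. The members of the comparison were the 3 samples whose labels give unfolded DD as the stress and 135 min as the time, and the 4 samples with the same stress at 405 min. The 5 control samples (no stress, time 0, S1 kept in the medium) gave the background level, and 3 samples at 45 min entered the statistical model only. The construct had been placed by PiggyBac transposition and the cells sorted for high GFP, so the line was a sorted population and not 1 clone. S1 was withdrawn by adding purified FKBP(F36V) protein to the medium, and every 135-min and 405-min sample received it. Samples with S1 kept for 135 or 405 min were not analysed here, so later effects of the unfolded DD, the added protein and time in culture cannot be told apart. The labels do not say whether replicates came from separate cultures, so the p-values measure only the spread between these samples.

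Without S1 the DD moves between folded and unfolded states, and bound S1 holds it in the folded one. The unfolded form is a substrate of the ubiquitin-proteasome system. Cells meet damaged protein with several transcriptional programs. HSF1 raises cytosolic chaperones, NRF2 raises antioxidant enzymes, NRF1 raises proteasome subunits, ATF4 raises amino acid genes, and p53 raises its own inhibitor Mdm2 together with cell cycle inhibitors. Some of these programs are transient because their products feed back on the factor, while others last as long as the damage, and the comparison of the late with the early time addresses which transcripts had returned and which had accumulated.

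Between 135 and 405 min, transcripts of some p53 targets, among them Mdm2, of the heat-inducible Hsp70 gene Hspa1b and of heme oxygenase 1 (Hmox1) came down from a high at 135 min. Transcripts of the MAPK phosphatases Dusp1 and Dusp10, Sprouty 2 (Spry2), the Kruppel-like factors Klf6 and Klf10 and the factor Id2 came up from a low at 135 min. Some proteasome subunits, antioxidant enzymes such as catalase (Cat), the ubiquitin gene Ubb and the proton pump subunits Atp6v1a and Atp6v1h were higher at 405 min. Some secreted and membrane proteins, tropomyosins and enzymes of lipid synthesis were lower. Of 10276 genes with a count in every sample, 230 (2.24%) were higher at 405 min and 290 (2.82%) were lower at an adjusted p-value under 0.05 in edgeR's quasi-likelihood test. The median log2 fold change was 1.16 among the former and -0.84 among the latter, and all 230 and all 290 had every 405-min sample beyond every 135-min sample. Samples were separated in that way at 19.2% of all tested genes in the upward direction and 17.6% in the downward direction.

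The samples were divided into 2 sets of libraries at the widest gap in their trend with GC content. The groups do not explain this division, and it cuts across the comparison. In each library the log2 level was regressed on the GC content of the gene's exons. The slope lay between -1.41 and -0.67 log2 units per 10 percentage points in 10 libraries (set 1) and between -0.38 and 0.03 in the other 5 (set 2). Within set 1 another gap, from -1.41 to -1.13, was nearly as wide, so the number of sets follows from the rule of the split. All 3 of the 135-min samples and 405-min replicate 3 were in set 1, while 405-min replicates 1, 2 and 4 were in set 2 together with control replicate 2 and replicate 3 at 45 min. The study's methods describe a manual and an automated library preparation, whereas the labels name 1 kit, and whether the sets correspond to these was not tested. The median log2 fold change from 135 to 405 min went from -0.27 in the fifth of genes with the lowest GC content to 0.60 in the fifth with the highest. With the library set as a covariate these medians were 0.10 and -0.03, and between 405-min replicate 3 and the 135-min samples, all of set 1, they were 0.05 and -0.02. The sets were split by GC slope, so a flatter trend was built into these medians and is no test of the sets.

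**Figure D1:**
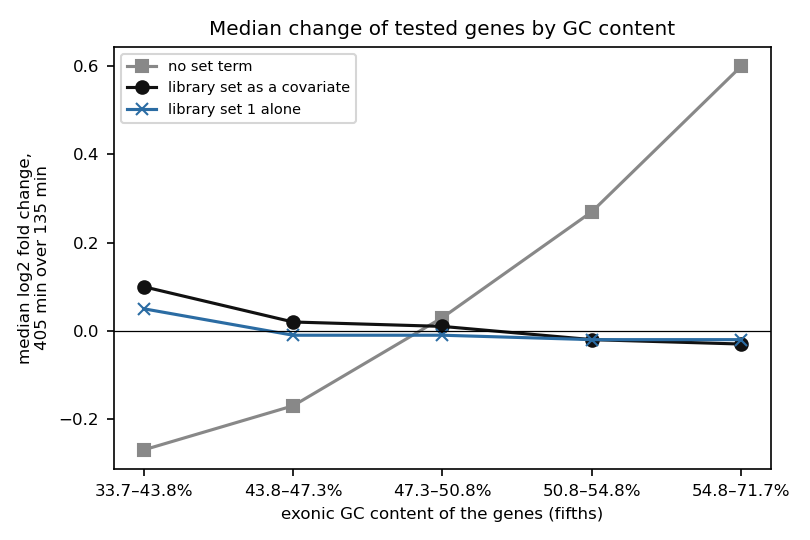
Median log2 fold change at 405 min over 135 min (vertical axis) of the tested genes in 5 equal groups by exonic GC content (horizontal axis, percent), without a term for the library set, with the set as a covariate and in set 1 alone. Without the term the medians climb from -0.27 to 0.60, and in the other lines they stay between -0.03 and 0.10. The sets were split by GC slope, so flatter lines were built in.

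The sets cut across the comparison, so each result for 405 min against 135 min is given first as fitted without a set term. Beside it stand the fit with the set as a covariate and the value within set 1. The fit with the set gave 171 higher genes (1.66%) and 207 lower genes (2.01%). Of these, 93 (0.905% of those tested) and 130 (1.27%) were also called without the set term, and the genes described individually below come mainly from these. Within set 1, where 405 min has 1 sample and its spread was taken from the other groups, no gene passed in edgeR, the lowest adjusted p-value was 0.0507, and 580 genes were higher and 611 lower at an unadjusted p-value under 0.05. The fit with the set rests on 405-min replicate 3, since it called 4 higher and 10 lower genes without that sample. Counts within gene lists below stand against the shares of all tested genes. These were 2.24% higher and 2.82% lower without the set, and 1.66% and 2.01% with it. Total counts were 16959832 to 28696476 at 135 min, 10309458 to 20341391 at 405 min and 6652539 to 18746456 in controls. The fibroblast markers summed to between 16943 and 18168 CPM (counts scaled to a common library total) at 135 min and between 12279 and 16885 at 405 min, with none of the 11 at 0. The markers of epithelial, haematopoietic, endothelial, muscle and adipose cells each summed to under 10 CPM in all 7 samples, with Adipoq at 0. In bulk RNA, fewer cells with a transcript and less of it per cell cannot be told apart.

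The genes are described below with their level in every sample, in CPM scaled by TMM factors and in the order of the replicate numbers. Most were chosen by a naming rule that required a call with and without the set and no overlap between the groups. For genes chosen in that way neither property is a further result. Gene positions follow mm9, as in the authors' tables. A fold change is on the log2 scale with its standard error (SE), and the adjusted p-value is the Benjamini-Hochberg value of edgeR's quasi-likelihood test. Of the 64 genes chosen for description that passed this test, 14 also passed in each of the 15 fits that left out 1 library: Mdm2, Hspa1b, Blvrb, Cat, Spry2, Dusp10, Klf10, Ndrg4, Ak3l1, Prss23, Mgp, Osmr, Anxa3 and Col8a1. The other 50 missed the threshold without at least 1 library, most often one at 135 min (48 calls were lost without replicate 2, 46 without replicate 1 and 44 without replicate 3) or 405-min replicate 4 (33 calls). A further fit took the replicate number as a block, and there 60 of the 64 lost their call, with no change of sign. Cat (adjusted p = 0.0416), Klf10 (0.0371), Ak3l1 (0.0387) and Mgp (0.0371) kept theirs. Mdm2 (0.0583), Hspa1b (0.064), Spry2 (0.0583), Dusp10 (0.0583) and Blvrb (0.0658) were among those lost. The plot of levels by library shows 16 of the genes described.

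**Figure D2:**
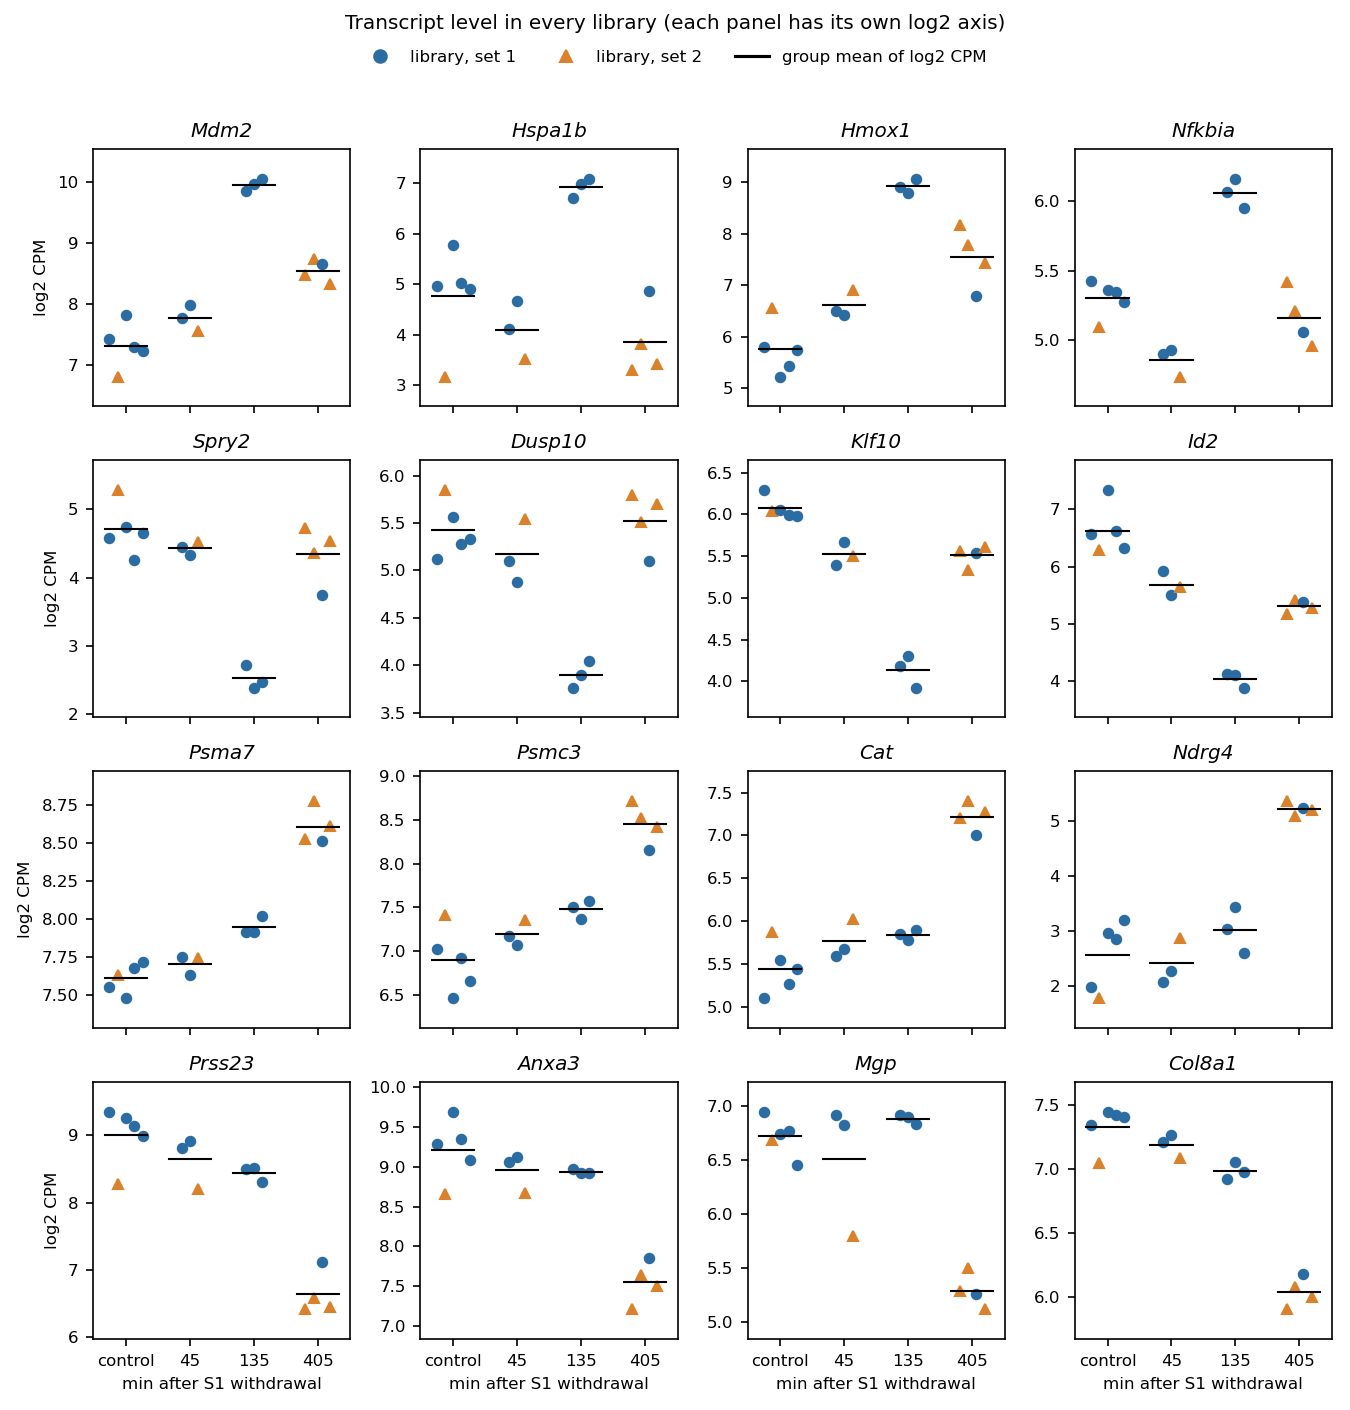
Level of 16 genes in each library as log2 CPM (vertical axis, a separate scale per panel) in the control and at 45, 135 and 405 min after S1 withdrawal (horizontal axis). Points are libraries, with circles for set 1 and triangles for set 2, and bars are group means. From the top, the rows hold genes that came down from a high at 135 min, genes that came up from a low at 135 min, genes highest at 405 min and genes lowest at 405 min.

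The promoters of 3 of these genes are shown because their transcripts moved in 3 different ways: Hspa1b fell from an early high, Ubb rose above its early level and Dusp1 rose from a low. Each line is the stretch of 250 bases before a RefSeq transcription start, 5′ to 3′, on assembly GRCm38.p6, whose coordinates differ from those of the deposited mm9 tables. The capitals mark 1 match in each, chosen from those of 8 motifs searched on both strands. In Hspa1b (chr17:34959239-34959488, minus strand) it is a head-to-head pair of heat shock units, GAANNTTC, 104 bases before the start. In Ubb (chr11:62551481-62551730, plus strand) it is the antioxidant response element TGACNNNGC, 29 bases before the start. The window of another Ubb start, upstream of this one, is not shown. Of the motifs searched it held a CCAAT box only. In Dusp1 (chr17:26508473-26508722, minus strand) it is the cAMP response element TGACGTCA, 143 bases before the start. Left unmarked are a CCAAT box in Hspa1b (67 bases before the start), a C/EBP-ATF element TGATGNAA in Ubb (156 bases), and in Dusp1 a TGACNNNGC (133 bases) that overlaps an E-box CACGTG (126 bases), of which all but the E-box read on the opposite strand.
Hspa1b: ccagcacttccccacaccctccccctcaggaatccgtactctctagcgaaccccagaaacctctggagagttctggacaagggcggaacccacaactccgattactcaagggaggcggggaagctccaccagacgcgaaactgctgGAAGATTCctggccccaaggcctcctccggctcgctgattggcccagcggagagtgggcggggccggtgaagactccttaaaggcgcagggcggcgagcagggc
Ubb: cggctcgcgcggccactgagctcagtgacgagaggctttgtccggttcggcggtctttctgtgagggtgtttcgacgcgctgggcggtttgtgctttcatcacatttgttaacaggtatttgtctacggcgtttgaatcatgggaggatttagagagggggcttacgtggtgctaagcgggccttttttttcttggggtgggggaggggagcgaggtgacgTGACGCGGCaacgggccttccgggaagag
Dusp1: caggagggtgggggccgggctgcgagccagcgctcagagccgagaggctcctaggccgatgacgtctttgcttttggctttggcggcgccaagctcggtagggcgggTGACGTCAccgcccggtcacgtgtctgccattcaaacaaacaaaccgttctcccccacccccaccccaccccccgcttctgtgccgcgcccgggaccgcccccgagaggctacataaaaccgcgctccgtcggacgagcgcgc
Among all 32851 RefSeq promoter windows of this length, 6.69% hold GAANNTTC, 10.2% hold TGACNNNGC and 1.55% hold TGACGTCA. Of the windows of tested genes the shares are 5.08%, 11.7% and 2.71%. A match describes the letters only and does not show binding.

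Several p53 targets, led by Mdm2, came down between 135 and 405 min. Mdm2 codes for the ubiquitin ligase that p53 induces and that degrades p53, and lies at chr10:117125961-117147772. Its level was 933, 1001 and 1064 CPM at 135 min and 356, 426, 404 and 320 CPM at 405 min, against 112 to 226 CPM in the controls. Every 405-min sample was thus below every 135-min sample and above every control. The fall was 2.65-fold (log2 fold change -1.41 ± 0.2 (SE), adjusted p = 0.0022), and its log2 fold change was -1.12 with the library set as a covariate (adjusted p = 0.00495) and -1.32 within library set 1. Relative to control, in comparisons that share these samples, the log2 fold change was 2.62 (adjusted p = 6.19e-06) at 135 min and 1.21 (adjusted p = 0.000434) at 405 min. Comparisons with control are given without the set term unless stated. Against control, 0.564% of tested genes were higher and 0.895% lower at 135 min, and 9.99% were higher and 13.4% lower at 405 min.

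Of 22 tested p53 targets of feedback and cell cycle arrest, 4 were lower at 405 min than at 135 min (Mdm2, Plk2, Polk and Slc19a2) and none was higher, and with the library set as a covariate 5 were lower (Mdm2, Plk2, Cdkn1a, Gtse1 and Sesn2). Of 13 tested p53 targets of cell death, 4 were lower (Apaf1, Dram1, Eda2r and Tnfrsf10b), or 1 with the set as a covariate (Apaf1). Of all tested genes 2.82% and 2.01% were lower in these fits. The median log2 fold changes without the set, with it and in set 1 were -0.2, -0.57 and -0.58 for the first list and -0.66, -0.58 and -0.62 for the second, beside 0.04, 0.02 and 0.00 over all tested genes. Apaf1, the scaffold of the apoptosome (chr10:90452056-90545488), had 66.3, 70 and 64.7 CPM at 135 min and 44.3, 44.3, 35.3 and 37.9 CPM at 405 min, and the groups did not overlap (log2 fold change -0.73 ± 0.16 (SE), adjusted p = 0.0196). Plk2, a polo-like kinase (chr13:111185252-111191051), had 163, 166 and 163 CPM and then 128, 126, 89.8 and 111 CPM (log2 fold change -0.53 ± 0.14 (SE), adjusted p = 0.0371). The controls had 117 to 142 CPM. Relative to control Plk2 did not pass at 135 min, at 0.32 (adjusted p = 0.323), or 0.34 with the set as a covariate (adjusted p = 0.0827). The Plk2 call was lost without any one of 9 libraries, control replicates 1 and 4 and replicate 1 at 45 min included, at adjusted p-values up to 0.145. The Apaf1 call was lost without any one 135-min sample or 405-min replicate 4, at up to 0.107, and with an offset fitted to each library's trend of counts with GC content (GC offset, no set term), at -0.51 (adjusted p = 0.0844).

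Cdkn1a, which codes for the cell cycle inhibitor p21, differed less clearly. Its level was 124, 122 and 132 CPM at 135 min and 124, 86.2, 60.3 and 96.1 CPM at 405 min, so 405-min replicate 1 overlapped the 135-min samples. The log2 fold change was -0.46 ± 0.27 (SE), which did not pass (adjusted p = 0.262), whereas it was -1.04 with the library set as a covariate (adjusted p = 0.00653) and -1.08 within library set 1. Ccng1, another p53 target, had 776, 865 and 776 CPM and then 529, 731, 929 and 603 CPM, with log2 fold changes of -0.21, 0.25 and 0.19 in the 3 settings, and passed in none. The p53 transcript itself, Trp53, had 51.9, 50.5 and 49.7 CPM and then 210, 115, 42.1 and 133 CPM, with 405-min replicate 3 below all 135-min samples and the other three above them, and its log2 fold changes were 1.3, -0.11 and -0.28 (adjusted p = 0.156 and 0.871 without and with the set). With only the 7 compared samples Trp53 passed narrowly (adjusted p = 0.0489).

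The heat shock genes split. Hspa1b, the stress-inducible cytosolic Hsp70 (chr17:35093374-35096183), fell 7.67-fold, the largest fall among the genes meeting the naming rule. It had 104, 127 and 135 CPM at 135 min, 9.81, 14.1, 29.3 and 10.7 CPM at 405 min and 9.02 to 54.7 CPM in the controls, so all 405-min samples lay within the control range (log2 fold change -2.94 ± 0.49 (SE), adjusted p = 0.00632). Its log2 fold change was -1.99 with the library set as a covariate (adjusted p = 0.00284) and -2.07 within library set 1. In the controls and at 405 min the libraries of set 2 had the lowest values. The adjacent gene Hspa1a is nearly identical, so the share of reads assigned to Hspa1b is uncertain.

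Hsph1, Hspa8 and Dnajb1, also chaperone genes, did not pass without the set term. Hsph1, a large Hsp70 relative, had 776, 820 and 873 CPM and then 644, 751, 771 and 738 CPM, against 223 to 407 CPM in the controls (log2 fold change -0.18, -0.15 and -0.11 without the set, with it and in set 1). Hspa8, the constitutive Hsp70, had 8243, 8019 and 8135 CPM and then 10520, 12300, 9766 and 11518 CPM, with every 405-min sample above every 135-min sample but an adjusted p-value of 0.202. Dnajb1, an Hsp40 co-chaperone, had 44.1, 42.9 and 45.7 CPM and then 43.4, 35.5, 22.3 and 33.2 CPM (log2 fold change -0.40 ± 0.27, adjusted p = 0.334), and with the set as a covariate it was lower at -0.93 ± 0.21 (SE, adjusted p = 0.0232). Of 25 tested heat shock genes, 2 were higher (Hsf2 and Hspb8) without the set and 1 (Hsf2) with it, and those lower included Hspa1b in both fits and Dnajb1 with the set.

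Hsf2, a second heat shock factor (chr10:57206191-57232949), rose instead, from 65, 73.8 and 60.1 CPM to 85.9, 109, 103 and 89.2 CPM, with no overlap (log2 fold change 0.54 ± 0.14 (SE), adjusted p = 0.0412). Its log2 fold change was 0.62 with the library set as a covariate (adjusted p = 0.0319) and 0.62 within library set 1. The call was lost without any one of 11 of the 15 libraries, with adjusted p-values up to 0.17 without 135-min replicate 3. Zfand2a, a proteasome-associated protein that heat and arsenite induce, did not pass between the times. It had 167, 149 and 172 CPM and then 182, 186, 132 and 174 CPM, against 26.9 to 45.6 CPM in the controls, and its log2 fold changes were 0.05, -0.24 and -0.32. Relative to control the log2 fold change of Zfand2a was 2.13 (adjusted p = 2.14e-05) at 135 min and 2.18 (adjusted p = 7.09e-06) at 405 min. The 8 subunits of the chaperonin TRiC had no call in either fit, with medians of -0.32, -0.11 and -0.22.

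Among the NRF2 targets Hmox1 came down while other antioxidant genes went up. Hmox1, which cleaves heme (chr8:77617517-77624491), had 478, 442 and 533 CPM at 135 min and 287, 220, 110 and 172 CPM at 405 min, against 37.5 to 94.4 CPM in the controls. It remained above every control, and replicate 3 of set 1 had the lowest of the 405-min values. The fall was 2.46-fold (log2 fold change -1.3 ± 0.31 (SE), adjusted p = 0.0295) and it was steeper once the set was considered, at -1.99 with the library set as a covariate (adjusted p = 0.000692) and -2.15 within library set 1. The call without the set was lost without any one 135-min sample, 405-min replicate 2 or 405-min replicate 4, at adjusted p-values up to 0.112.

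Of 32 tested NRF2 targets, 8 were higher (Blvrb, Cat, Ephx1, Gsr, Gsta4, Me1, Sqstm1 and Taldo1) and Hmox1 alone was lower. With the set as a covariate 8 were higher as well (Blvrb, Cat, Gsr, Gsta4, Me1, Mgst1, Prdx1 and Taldo1), and again Hmox1 alone was lower. The 8 higher genes without the set were 25.0% of the list, against 2.24% of all tested genes, or 1.66% with the set. The share of all tested genes that were lower was 2.82%, or 2.01% with the set. The medians in the 3 settings were 0.93, 0.47 and 0.48. Cat, the catalase that removes hydrogen peroxide (chr2:103294061-103325310), rose from 57.7, 54.8 and 59.5 CPM to 147, 169, 128 and 155 CPM (log2 fold change 1.39 ± 0.19 (SE), adjusted p = 0.00194), or 1.07 with the library set as a covariate (adjusted p = 0.00144) and 1.15 within library set 1. Blvrb, a biliverdin reductase (chr7:28232997-28251000), rose from 56.7, 47.9 and 48.5 CPM to 183, 175, 142 and 184 CPM (log2 fold change 1.74 ± 0.28 (SE), adjusted p = 0.00521), or 1.26 with the library set as a covariate (adjusted p = 0.00249) and 1.46 within library set 1. In both genes every 405-min sample was far above every 135-min sample and every control. Taldo1, transaldolase of the pentose phosphate pathway (chr7:148578110-148588867), rose from 74.7, 65.5 and 69.9 CPM to 305, 211, 117 and 227 CPM (log2 fold change 1.62 ± 0.37 (SE), adjusted p = 0.0246). In Taldo1 the value of 405-min replicate 3 was well below those of the other three, and the estimate was 0.76 with the library set as a covariate (adjusted p = 0.0291) and 0.73 within library set 1. Its call was lost without any one 135-min sample or 405-min replicate 1, 2 or 4, with adjusted p-values up to 0.123.

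Other NRF2 targets were above control at 135 min and did not pass between 135 and 405 min with or without the set term. With only the 7 compared samples, where 1880 genes were higher, Gclm (adjusted p = 0.00923) and Slc7a11 (adjusted p = 0.0172) passed. Osgin1 did not pass in that fit either (adjusted p = 0.289). Gclm, a subunit of the enzyme that limits glutathione synthesis, had 164, 190 and 178 CPM and then 273, 305, 291 and 287 CPM, with log2 fold changes of 0.71, 0.71 and 0.7 and no overlap between the groups. Slc7a11, the cystine importer, had 35.3, 37.1 and 25.2 CPM and then 72, 79.7, 50 and 54.3 CPM, also without overlap, with log2 fold changes of 0.98, 0.54 and 0.61. Osgin1 had 15.4, 16.4 and 13.3 CPM and then 31.5, 20.3, 10.9 and 20.7 CPM, with 405-min replicate 3 below all 135-min samples. Its log2 fold change was 0.47 ± 0.46 (SE, adjusted p = 0.501) without the set and -0.47 ± 0.34 (SE, adjusted p = 0.515) with it. Relative to control the log2 fold changes of Gclm, Slc7a11 and Osgin1 were 1.57 (adjusted p = 0.0169), 2.11 (adjusted p = 0.0478) and 3.05 (adjusted p = 0.00216) at 135 min. They were 2.27 (adjusted p = 0.000184), 3.09 (adjusted p = 0.000847) and 3.52 (adjusted p = 0.000172) at 405 min. Control replicate 3 was far below the other controls in Gclm and Slc7a11.

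Some proteasome transcripts built up, and none passed in the other direction. Of 14 tested genes of the 20S core, the chamber that cuts proteins, 4 were higher at 405 min (Psma7, Psmb2, Psmb3 and Psmb4) and none lower. Of 22 tested genes of the 19S regulator, which binds and unfolds ubiquitylated proteins, 5 were higher (Psmc3, Psmd2, Psmd4, Psmd9 and Psmd13) and none lower. With the library set as a covariate the counts were 2 (Psma7 and Psmb2) and 6 (Psmc3, Psmc4, Psmc6, Psmd5, Psmd12 and Psmd13), again with none lower. Calls took up 2.24% and 1.66% of all tested genes in the upward direction in these fits. All 14 and all 22 log2 fold changes were positive with the set as a covariate, as against 8 of 14 and 20 of 22 without it. Within set 1 all 14 and all 22 were positive, beside 50.2% of all genes. The medians without the set, with it and in set 1 were 0.16, 0.61 and 0.57 for the core and 0.35, 0.55 and 0.56 for the regulator.

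Psma7, an alpha subunit of the core (chr2:179771081-179777107), rose from 241, 241 and 259 CPM to 369, 439, 365 and 391 CPM, against 178 to 210 CPM in the controls. The difference was 1.58-fold (log2 fold change 0.66 ± 0.12 (SE), adjusted p = 0.00983), and the estimate was 0.61 with the library set as a covariate (adjusted p = 0.0139) and 0.55 within library set 1. Psmb2, a beta subunit (chr4:126354887-126386959), rose from 108, 107 and 102 CPM to 336, 245, 171 and 253 CPM (log2 fold change 1.25 ± 0.23 (SE), adjusted p = 0.0107), or 0.8 with the library set as a covariate (adjusted p = 0.0191) and 0.69 within library set 1. In both genes no 405-min sample overlapped a 135-min sample, as the naming rule required. Psmb3 (chr11:97564748-97574814) rose from 137, 143 and 147 CPM to 387, 334, 263 and 311 CPM (log2 fold change 1.19 ± 0.27 (SE), adjusted p = 0.023), and with the set as a covariate its log2 fold change of 0.9 ± 0.27 (SE, adjusted p = 0.0751) did not pass. Psma1 (chr7:121408064-121419630) did not pass in any setting, with 312, 333 and 325 CPM and then 311, 405, 498 and 330 CPM and log2 fold changes of 0.25, 0.78 and 0.61.

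In the 19S regulator, Psmc3, one of the ATPases that pull substrates in (chr2:90894173-90899594), rose from 182, 165 and 190 CPM to 421, 369, 286 and 343 CPM (log2 fold change 0.99 ± 0.2 (SE), adjusted p = 0.0156), or 0.65 with the library set as a covariate (adjusted p = 0.0375) and 0.67 within library set 1. Psmd13, a lid subunit (chr7:148068293-148084541), rose from 42.2, 44.1 and 41.9 CPM to 160, 118, 62.4 and 130 CPM (log2 fold change 1.46 ± 0.35 (SE), adjusted p = 0.0288). Its replicate 3 was the lowest of the 405-min samples, and the estimate was 0.63 with the library set as a covariate (adjusted p = 0.0443) and 0.53 within library set 1. Psmd3 (chr11:98543868-98557292) had 152, 139 and 145 CPM and then 551, 392, 218 and 431 CPM, with no overlap but an adjusted p-value of 0.0766, and log2 fold changes of 1.46, 0.51 and 0.57. With only the 7 compared samples Psmd3 passed (adjusted p = 0.0102). It also passed with the GC offset, at 0.95 (adjusted p = 0.028), and in DESeq2's Wald test (adjusted p = 0.0172). Leaving out any one 135-min sample ended the calls of Psmb2, Psmb3, Psmc3 and Psmd13, and leaving out 135-min replicate 1 or 2 that of Psma7, with adjusted p-values up to 0.122. Leaving out 405-min replicate 4 ended those of Psmb3, Psmc3 and Psmd13, and 405-min replicate 1 or 2 those of Psmb3 and Psmd13. With the GC offset Psma7 did not pass, at 0.46 (adjusted p = 0.0501), and Psmc3 passed at 0.59 (adjusted p = 0.00899). The 10 tested assembly factors and activators had no call in either fit, with medians of 0.07, 0.16 and 0.21.

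**Figure D3:**
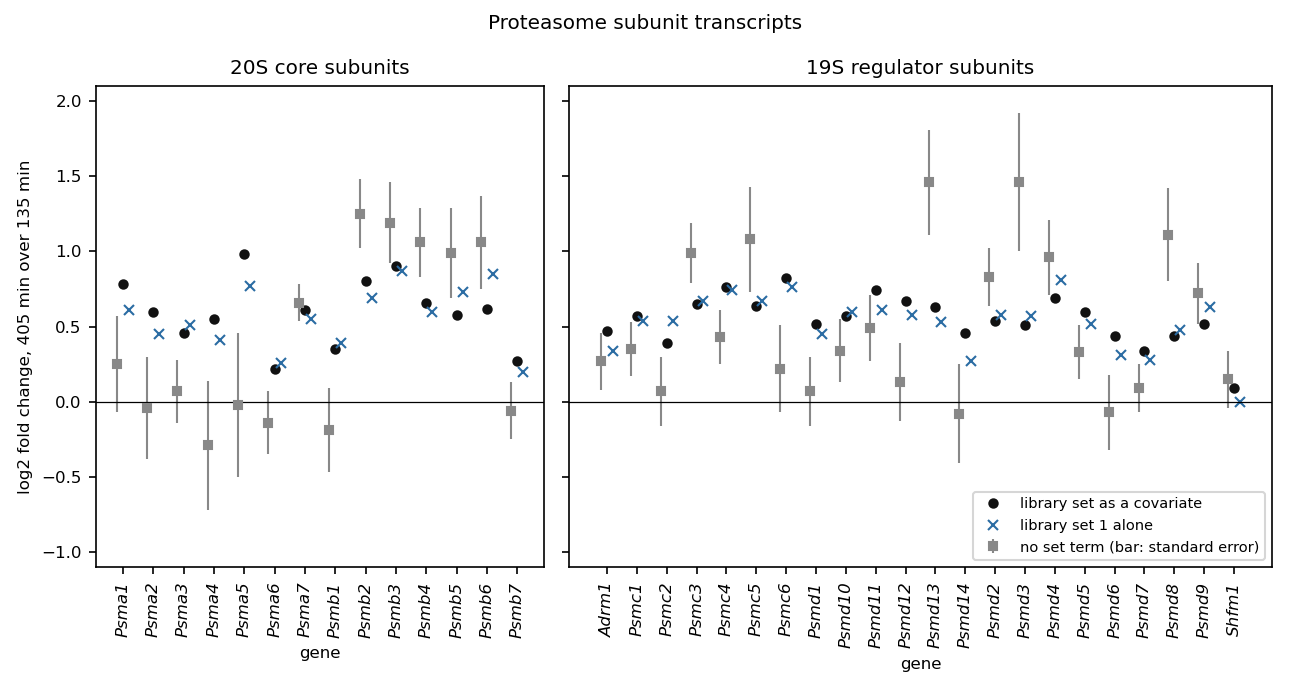
Log2 fold change at 405 min over 135 min (vertical axis) of the 14 tested 20S core and 22 tested 19S regulator genes (horizontal axis). Squares with SE bars are without a term for the library set, circles are with the set as a covariate and crosses are from set 1 alone. Circles lie above 0 for all 36 genes, squares below 0 for 8.

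Ubb rose in both fits, and the p97 partners that passed differed between the fits. Ubb (chr11:62365006-62366714), a polyubiquitin gene, rose from 221, 223 and 226 CPM to 427, 498, 345 and 441 CPM (log2 fold change 0.94 ± 0.19 (SE), adjusted p = 0.0149), or 0.59 with the library set as a covariate (adjusted p = 0.0291) and 0.62 within library set 1. Every 405-min sample was above every 135-min sample, and the controls had 142 to 213 CPM. Ubiquitin genes share repeated coding units and have copies elsewhere, so the assignment of their reads is uncertain. Leaving out any one 135-min sample or 405-min replicate 4 ended the Ubb call, with adjusted p-values up to 0.0858, and with the GC offset its log2 fold change was 0.51 (adjusted p = 0.0498). Of 24 tested genes for ubiquitin, p97, its adaptors and shuttle factors, 2 were higher (Ubb and Nploc4), and with the set as a covariate 4 were higher (Ubb, Faf1, Ubxn4 and Ufd1l). Ufd1l and Nploc4 code for the partners that give p97 its ubiquitin substrates.

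A few autophagy and lysosome transcripts rose. Nbr1, a receptor that carries ubiquitylated protein into autophagosomes (chr11:101414172-101443259), rose from 87.6, 109 and 85.9 CPM to 155, 165, 180 and 178 CPM (log2 fold change 0.85 ± 0.14 (SE), adjusted p = 0.00632), or 0.79 with the library set as a covariate (adjusted p = 0.00858) and 0.92 within library set 1. Sqstm1, which codes for the receptor p62 (chr11:50013654-50024292), had 390, 379 and 382 CPM and then 1829, 1298, 615 and 1269 CPM. The 405-min samples of set 2 had the highest values, and the difference passed without the set (log2 fold change 1.71 ± 0.46 (SE), adjusted p = 0.0466) and did not pass with it, at 0.66 ± 0.23 (SE, adjusted p = 0.139). Its call was also lost without any one of 10 libraries, among them control replicates 1, 4 and 5, with adjusted p-values up to 0.17, and the Nbr1 call without 135-min replicate 1 or 3, at up to 0.0562. Of 29 tested autophagy genes 3 (10.3%) were higher (Nbr1, Sqstm1 and Tax1bp1) and none lower, or 1 (Nbr1) with the set, and the medians were 0.47, 0.43 and 0.41. Of all tested genes 2.24% were higher without the set and 1.66% with it.

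Atp6v1a and Atp6v1h code for subunits of the proton pump that acidifies lysosomes. Atp6v1a (chr16:44085517-44139132) rose from 53, 51.6 and 46 CPM to 123, 112, 91.4 and 122 CPM (log2 fold change 1.16 ± 0.23 (SE), adjusted p = 0.0125), or 0.8 with the library set as a covariate (adjusted p = 0.0344) and 0.85 within library set 1. Atp6v1h (chr1:5073254-5152630) rose from 61, 67.5 and 64.1 CPM to 136, 116, 97.6 and 117 CPM (log2 fold change 0.86 ± 0.17 (SE), adjusted p = 0.0116), or 0.77 with the library set as a covariate (adjusted p = 0.0291) and 0.59 within library set 1. At 135 min both were within the range of the controls, 40.5 to 59.4 CPM for Atp6v1a and 51.4 to 77.6 CPM for Atp6v1h. Of 38 tested lysosomal genes 5 (13.2%) were higher (these and Ctsd, Gaa and Neu1), or 2 (these) with the set, and none was lower. The shares of all tested genes that were higher were 2.24% and 1.66%. Within set 1, 35 of 38 lysosomal genes were positive, beside 50.2% of all genes, and the medians were 0.46, 0.22 and 0.27. Both calls were lost without any one 135-min sample, and that of Atp6v1a also without 405-min replicate 4, with adjusted p-values up to 0.0775.

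No marker of ER stress or of the ATF4 program passed in both fits except Atf4, which was lower. Hspa5, the ER chaperone BiP (chr2:34627610-34632049), had 584, 613 and 607 CPM and then 674, 587, 602 and 525 CPM, with log2 fold changes of -0.01, 0.16 and -0.01. Ddit3, which codes for CHOP, had 21.5, 21.7 and 26.9 CPM and then 29.1, 28.6, 30 and 38.4 CPM, with log2 fold changes of 0.43, 0.05 and 0.35. Ddit3 overlaps Mars in the annotation. Atf4 itself (chr15:80085614-80087971) fell from 457, 438 and 507 CPM to 287, 328, 316 and 311 CPM, below every control at 402 to 468 CPM (log2 fold change -0.59 ± 0.12 (SE), adjusted p = 0.0121), or -0.56 with the library set as a covariate (adjusted p = 0.0193) and -0.58 within library set 1. The Atf4 call was lost without any one 135-min sample or 405-min replicate 4, at adjusted p-values up to 0.0726. Of 32 tested ATF4 targets none was higher and 1 (Atf4) was lower, or 4 (Atf4, Sesn2, Slc7a1 and Slc7a5) with the set, and the medians were -0.17, -0.36 and -0.28. Of 27 tested ER chaperone and unfolded protein response genes, 1 was higher (Wfs1) without the set and 1 was lower (Herpud1) with it. Atf3, another stress-induced factor, had 0 counts in 1 control and was not tested. It had 1.83, 1.25 and 3.14 CPM and then 1.17, 2.1, 1.26 and 1.15 CPM.

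Spry2, Dusp10 and Dusp1, feedback inhibitors of growth factor and stress kinase signalling, came up from a low at 135 min. Spry2, Sprouty 2, an inhibitor of receptor tyrosine kinase signalling (chr14:106291164-106296036), had 19.2 to 39 CPM in the controls, 6.59, 5.22 and 5.54 CPM at 135 min and 26.6, 20.5, 13.4 and 23.3 CPM at 405 min. The 135-min samples were the lowest, and 405-min replicates 1, 2 and 4 were within the control range. The rise was 3.63-fold (log2 fold change 1.86 ± 0.27 (SE), adjusted p = 0.0028), or 1.4 with the library set as a covariate (adjusted p = 0.00453) and 1.2 within library set 1. Relative to control the log2 fold change was -2.21 (adjusted p = 0.000399) at 135 min and -0.36 (adjusted p = 0.24) at 405 min. With the set as a covariate it was -2.07 (adjusted p = 1.23e-05) and -0.67 (adjusted p = 0.0267). Spry2 was thus still below control at 405 min in that fit.

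Dusp10, a phosphatase of JNK and p38 (chr1:185858340-185899515), had 34.7 to 57.6 CPM in the controls, 13.6, 14.9 and 16.5 CPM at 135 min and 55.4, 45.6, 34.2 and 52.2 CPM at 405 min (log2 fold change 1.64 ± 0.23 (SE), adjusted p = 0.00228), or 1.21 with the library set as a covariate (adjusted p = 0.00201) and 1.17 within library set 1. Dusp1, the early phosphatase of MAP kinases (chr17:26642537-26645417), had 22.8 to 36.1 CPM in the controls, 10, 14.2 and 14.3 CPM and then 40.8, 31, 34.7 and 52.5 CPM (log2 fold change 1.63 ± 0.3 (SE), adjusted p = 0.0107), or 1.2 with the library set as a covariate (adjusted p = 0.0185) and 1.42 within library set 1. In both genes the 135-min samples were below all controls and all 405-min samples. Dusp1 lost its call without any one 135-min sample, at adjusted p-values up to 0.0721, and relative to control at 135 min it did not pass, at -1.08 (adjusted p = 0.0953). With the set as a covariate Dusp1 did pass against control at 135 min, at -0.94 (adjusted p = 0.0174). Of 14 tested DUSP, Sprouty and Spred genes these 3 (21.4%) were the ones higher in both fits, against 2.24% and 1.66% of all tested genes, and none was lower. The median, 0.51, 0.13 and 0.13, was lower with the set than without it.

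Some transcription factors with an early loss also came up. Klf10, a Kruppel-like factor that TGF-beta induces (chr15:38224168-38230462), had 63 to 78.4 CPM in the controls, 18.2, 19.7 and 15.2 CPM at 135 min and 47.1, 40.5, 46.5 and 48.7 CPM at 405 min (log2 fold change 1.37 ± 0.15 (SE), adjusted p = 0.00105), or 1.4 with the library set as a covariate (adjusted p = 0.000746) and 1.38 within library set 1. All 405-min samples lay between the 2 other groups, and the value of replicate 3 was within the range of the other three. Klf6 (chr13:5860735-5869639) had 114 to 200 CPM, 50.4, 66.6 and 59.2 CPM and 84, 93.4, 119 and 100 CPM (log2 fold change 0.75 ± 0.2 (SE), adjusted p = 0.0412), or 1.05 with the library set as a covariate (adjusted p = 0.00453) and 1.0 within library set 1, and its call without the set was lost without any one of 10 libraries, controls 1, 4 and 5 included, at adjusted p-values up to 0.177. Id2, an inhibitor of basic helix-loop-helix factors and a BMP target (chr12:25778664-25780957), had 78.3 to 162 CPM, 17.4, 17.2 and 14.8 CPM and 35.9, 42.7, 41.8 and 38.6 CPM (log2 fold change 1.27 ± 0.23 (SE), adjusted p = 0.0104), or 1.45 with the library set as a covariate (adjusted p = 0.00558) and 1.33 within library set 1. It had come back in part only, since its log2 fold change relative to control was -2.64 (adjusted p = 2.83e-05) at 135 min and -1.37 (adjusted p = 0.000551) at 405 min. Hes1, a Notch-responsive repressor (chr16:30065443-30067882), had 9.52 to 17 CPM, 3.11, 1.88 and 1.9 CPM and 4.42, 4.53, 6.76 and 5.44 CPM (log2 fold change 1.2 ± 0.3 (SE), adjusted p = 0.0342), or 1.36 with the library set as a covariate (adjusted p = 0.0352) and 1.55 within library set 1. The Id2 call was lost without any one 135-min sample, at adjusted p-values up to 0.0612, and the Hes1 call without these, 405-min replicate 1, 2 or 4 or replicate 1 at 45 min, at up to 0.162. With the GC offset Hes1 did not pass, at 1.02 (adjusted p = 0.0608).

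Cebpd, Myc, Egr1 and Fos did not pass in either fit. With only the 7 compared samples Cebpd (adjusted p = 0.0214) and Egr1 (adjusted p = 0.00684) passed, and Myc (0.126) and Fos (0.748) did not. Cebpd, a C/EBP factor that overlaps 2310008H04Rik in the annotation (chr16:15887379-15889638), had 68 to 223 CPM in the controls, 15.7, 13 and 15.5 CPM at 135 min and 28.8, 25.3, 20.4 and 23.8 CPM at 405 min. All 405-min samples were above the 135-min samples, but the log2 fold change of 0.74 ± 0.3 (SE, adjusted p = 0.135) did not pass. Myc (chr15:61816896-61821916) had 117 to 254 CPM, 51.4, 61.3 and 58.5 CPM and 87.6, 75, 55.7 and 84.3 CPM, and its log2 fold changes of 0.41, 0.26 and -0.05 did not pass in any setting. Relative to control, log2 fold changes at 405 min were -2.32 (adjusted p = 0.000111) for Cebpd and -1.15 (adjusted p = 0.00191) for Myc. Egr1, a serum-induced factor, had 8.79, 9.56 and 6.71 CPM and then 36.4, 20.9, 21 and 38 CPM, without overlap, at 1.8 ± 0.56 (SE, adjusted p = 0.0735). It passed with the GC offset, at 1.48 (adjusted p = 0.0433), and in DESeq2's Wald test (adjusted p = 0.011). Fos had under 2 CPM in all 7 samples, with log2 fold changes of 0.26, 1.24 and 1.05. Of 17 tested immediate-early factors 1 was higher (Fosl2) without the set and 1 lower (Jun) with it, and of 15 tested C/EBP and Kruppel-like factors 3 were higher (Klf10, Klf6 and Klf3), or 2 (Klf10 and Klf6) with the set.

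Cyr61 and Ctgf, matrix proteins induced by YAP and TGF-beta, also came up. Cyr61 (chr3:145309935-145312949) had 45.3, 40.2 and 40.6 CPM at 135 min and 210, 187, 107 and 191 CPM at 405 min, against 45.8 to 236 CPM in the controls (log2 fold change 2.05 ± 0.42 (SE), adjusted p = 0.0157), or 1.31 with the library set as a covariate (adjusted p = 0.0339) and 1.33 within library set 1. The controls of set 1 had between 45.8 and 113 CPM and the one of set 2 had 236 CPM, so where the 405-min samples stand against control depends on the set. Ctgf (chr10:24315248-24318488) had 47.9, 45 and 37.2 CPM and 106, 83.6, 72.3 and 94.6 CPM, against 126 to 262 CPM in the controls (log2 fold change 1.04 ± 0.23 (SE), adjusted p = 0.0219), and with the set it did not pass, at 0.78 ± 0.23 (SE, adjusted p = 0.0795). Of 23 tested TGF-beta and YAP targets 4 (17.4%) were higher (Cyr61, Ctgf, Amotl2 and Tgif1) and none lower, and with the set 3 were higher (Cyr61, Ankrd1 and F3) and 1 lower (Axl). Of all tested genes 2.24% were higher without the set, and with it 1.66% were higher and 2.01% lower. Cdkn1b, which codes for the cell cycle inhibitor p27 (chr6:134870419-134875543), had 37.6 to 48.4 CPM in the controls, 25.6, 24.8 and 23.7 CPM at 135 min and 36.8, 34, 62.8 and 43.2 CPM at 405 min (log2 fold change 0.84 ± 0.21 (SE), adjusted p = 0.0322), or 0.98 with the library set as a covariate (adjusted p = 0.018) and 1.33 within library set 1. The calls of Cyr61, Ctgf and Cdkn1b were lost without any one 135-min sample or 405-min replicate 4, and that of Ctgf also without 405-min replicate 1, at adjusted p-values up to 0.13.

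The genes with the largest rises under the naming rule were not members of these lists, apart from Cyr61. Ndrg4, a protein of the NDRG family best known from brain and heart (chr8:98226963-98238856), rose from 8.18, 10.8 and 6.06 CPM to 41.2, 34.3, 37.7 and 36.6 CPM, against 3.41 to 9.18 CPM in the controls. Replicate 3 was within the range of the other 405-min samples, and the difference of 4.48-fold (log2 fold change 2.17 ± 0.35 (SE), adjusted p = 0.00601) was 2.24 with the library set as a covariate (adjusted p = 0.00558) and 2.16 within library set 1. Phf1, a Polycomb-associated protein (chr17:27070072-27074835), had the largest estimate of all called genes, with 1.28, 3.03 and 1.97 CPM and then 32.1, 20.5, 11.2 and 30 CPM (log2 fold change 3.48 ± 0.72 (SE), adjusted p = 0.0155), or 2.11 with the library set as a covariate (adjusted p = 0.0101) and 2.4 within library set 1. Its replicate 3 was the lowest of the 405-min samples, and the estimate was smaller with the set.

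Rusc1 (chr3:88887901-88893953) had 0.915, 0.888 and 0.839 CPM and then 13.9, 8.87, 3.48 and 10.1 CPM (log2 fold change 3.36 ± 0.6 (SE), adjusted p = 0.00946), or 2.08 with the library set as a covariate (adjusted p = 0.0102) and 1.96 within library set 1. Abhd4, a lipase of N-acyl phospholipids (chr14:54878972-54888840), had 14.5, 14.9 and 13.2 CPM and then 104, 61.6, 38.5 and 88.6 CPM (log2 fold change 2.37 ± 0.52 (SE), adjusted p = 0.0199), or 1.36 with the library set as a covariate (adjusted p = 0.0336) and 1.43 within library set 1. Coasy, the enzyme of the last steps of coenzyme A synthesis (chr11:100943939-100947933), had 8.24, 6.43 and 9.38 CPM and then 34.7, 33.2, 26.5 and 40.4 CPM (log2 fold change 2.07 ± 0.45 (SE), adjusted p = 0.0197), or 1.41 with the library set as a covariate (adjusted p = 0.0365) and 1.71 within library set 1. In all of these the 405-min samples were above every 135-min sample, as the naming rule required. Mapk11, the beta form of p38 (chr15:88972914-88980036), had 4.15, 4.81 and 4.23 CPM and then 19.4, 14.6, 13.6 and 19.1 CPM (log2 fold change 1.92 ± 0.36 (SE), adjusted p = 0.0107), or 1.33 with the library set as a covariate (adjusted p = 0.0141) and 1.62 within library set 1. Fam46b (chr4:133036048-133043855), which had 7.82 to 33.3 CPM in the controls, went from 2.26, 3.92 and 2.3 CPM to 16.9, 16.9, 9.18 and 19 CPM (log2 fold change 2.46 ± 0.49 (SE), adjusted p = 0.0131), or 1.59 with the library set as a covariate (adjusted p = 0.0217) and 1.69 within library set 1. Its 405-min samples lay within the range of the controls, and relative to control it went from a log2 fold change of -2.49 (adjusted p = 0.0175) at 135 min to -0.03 (adjusted p = 0.958) at 405 min. With the set as a covariate these were -2.12 (adjusted p = 0.000636) and -0.53 (adjusted p = 0.23). The control of set 2 had 33.3 CPM, above every 405-min sample of set 2, so the return to control depends on the set. The log2 fold changes of B230312A22Rik, 1810043G02Rik, Bsdc1 and Flywch1 were between 1.88 and 2.25 without the set, between 1.15 and 1.88 with it and between 1.13 and 1.59 within set 1. The calls of Phf1, Rusc1, Abhd4, Coasy, Mapk11, Fam46b, 1810043G02Rik and Flywch1 were lost without any one 135-min sample, with adjusted p-values up to 0.118. Those of Phf1, Abhd4, Coasy and Fam46b were also lost without 405-min replicate 4, and those of Abhd4 and Coasy without 405-min replicate 1. B230312A22Rik lost its call without 135-min replicate 3 and Bsdc1 without 135-min replicate 2.

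Among transcripts that fell were several for secreted and membrane proteins. Prss23, a secreted serine protease (chr7:96656295-96666096), had 311 to 651 CPM in the controls, 361, 364 and 318 CPM at 135 min and 85.2, 95.9, 139 and 87.5 CPM at 405 min. All 405-min samples were below every 135-min sample and every control, and the fall was 3.42-fold (log2 fold change -1.77 ± 0.25 (SE), adjusted p = 0.00216), or -1.24 with the library set as a covariate (adjusted p = 0.000692) and -1.34 within library set 1. Mgp, the matrix Gla protein that hinders calcification (chr6:136820956-136824326), had 121, 119 and 114 CPM and then 38.9, 45.1, 38.2 and 34.6 CPM, against 87.7 to 123 CPM in the controls (log2 fold change -1.59 ± 0.22 (SE), adjusted p = 0.00194), or -1.35 with the library set as a covariate (adjusted p = 0.00558) and -1.64 within library set 1. Osmr, a subunit of the oncostatin M receptor (chr15:6763577-6824313), had 78.2, 75.4 and 71.1 CPM and then 28.1, 27.7, 26 and 23.8 CPM (log2 fold change -1.51 ± 0.26 (SE), adjusted p = 0.00732), or -1.1 with the library set as a covariate (adjusted p = 0.028) and -1.54 within library set 1. In Mgp and Osmr replicate 3 was within the range of the other 405-min samples. Anxa3, an annexin that binds membranes with calcium (chr5:97222404-97274987), had 500, 484 and 483 CPM and then 148, 200, 232 and 181 CPM (log2 fold change -1.36 ± 0.21 (SE), adjusted p = 0.00445), or -0.99 with the library set as a covariate (adjusted p = 0.00558) and -1.09 within library set 1.

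Cd24a, a surface sialoglycoprotein (chr10:43298975-43304071), had 235, 269 and 222 CPM and then 44.4, 69.6, 111 and 53.6 CPM (log2 fold change -1.8 ± 0.37 (SE), adjusted p = 0.0157), or -1.02 with the library set as a covariate (adjusted p = 0.0163) and -1.13 within library set 1. Ak3l1, a mitochondrial adenylate kinase now called Ak4 (chr4:101092364-101139600), had 54.5, 46.3 and 48.6 CPM and then 12.4, 16, 15.5 and 10.1 CPM (log2 fold change -1.88 ± 0.24 (SE), adjusted p = 0.00135), or -1.63 with the library set as a covariate (adjusted p = 0.00312) and -1.7 within library set 1. In Ak3l1 replicate 3 was within the range of the other 405-min samples, while in Cd24a it was the highest of them. Timm8a1, a mitochondrial import chaperone (chrX:131071797-131076168), had 148, 157 and 178 CPM and then 40.4, 58.5, 92.2 and 44.9 CPM (log2 fold change -1.45 ± 0.32 (SE), adjusted p = 0.0197), or -0.81 with the library set as a covariate (adjusted p = 0.0236) and -0.82 within library set 1. Msi2, an RNA-binding protein (chr11:88152884-88579543), had 53.1, 68.6 and 53.1 CPM and then 16.3, 19.3, 37.4 and 19.8 CPM (log2 fold change -1.33 ± 0.29 (SE), adjusted p = 0.0204), or -0.85 with the library set as a covariate (adjusted p = 0.0456) and -0.65 within library set 1. Prokr1 and Siglecg, receptors under 10 CPM in all 7 samples, had log2 fold changes of -1.71 ± 0.29 (SE, adjusted p = 0.00757) and -1.5 ± 0.35 (SE, adjusted p = 0.027) without the set and -1.4 ± 0.35 (SE, adjusted p = 0.0365) and -1.79 ± 0.41 (SE, adjusted p = 0.0251) with it. Cd24a, Timm8a1, Msi2 and Siglecg lost their calls without any one 135-min sample or 405-min replicate 4, at adjusted p-values up to 0.133. Cd24a, Timm8a1 and Msi2 also lost them without 405-min replicate 1, and Timm8a1, Msi2 and Siglecg without 405-min replicate 2. Prokr1 lost its call without 135-min replicate 2, at 0.0553.

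Some actin-binding proteins fell. Tpm4 (chr8:74659191-74677028) and Tpm1 (chr9:66870400-66897020) code for tropomyosins, which lie along actin filaments. Tpm4 had 816, 865 and 840 CPM and then 367, 421, 507 and 367 CPM (log2 fold change -1.02 ± 0.2 (SE), adjusted p = 0.0121), or -0.62 with the library set as a covariate (adjusted p = 0.0208) and -0.74 within library set 1. Tpm1 had 646, 622 and 640 CPM and then 308, 360, 462 and 366 CPM (log2 fold change -0.77 ± 0.14 (SE), adjusted p = 0.0107), or -0.63 with the library set as a covariate (adjusted p = 0.0207) and -0.47 within library set 1. Actn1, alpha-actinin 1, which crosslinks the filaments (chr12:81268534-81361303), had 778, 751 and 750 CPM and then 527, 497, 452 and 477 CPM (log2 fold change -0.64 ± 0.15 (SE), adjusted p = 0.0274), or -0.75 with the library set as a covariate (adjusted p = 0.0169) and -0.76 within library set 1. As the naming rule required, none of these genes had an overlap between the groups. Of 25 tested actin cytoskeleton and SRF target genes, 4 (16.0%) were lower (Tpm4, Tpm1, Actn1 and Actg1) and none higher, and with the set 4 were lower (Tpm4, Tpm1, Actn1 and Cnn2). The shares of all tested genes that were lower were 2.82% and 2.01%. Leaving out any one 135-min sample ended the calls of Tpm4, Tpm1 and Actn1, with adjusted p-values up to 0.118, as did 405-min replicate 4 for Tpm4 and Actn1 and 405-min replicate 1 or 2 for Actn1. Actb did not pass, with 3124, 2920 and 2873 CPM and then 4702, 4080, 2126 and 3904 CPM and log2 fold changes of 0.32, -0.59 and -0.5, which differ in sign.

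Col8a1, a short-chain collagen (chr16:57624369-57754850), fell from 121, 133 and 126 CPM to 59.8, 67.5, 72.5 and 63.8 CPM (log2 fold change -0.94 ± 0.13 (SE), adjusted p = 0.00194), or -0.77 with the library set as a covariate (adjusted p = 0.00307) and -0.82 within library set 1 (replicate 3 was the highest of the 405-min samples). Of 20 tested collagens 2 were lower (Col8a1 and Col11a1), or 3 with the set (Col8a1, Col3a1 and Col5a1), and none was higher. Their median was 0.02 without the set, -0.49 with it and -0.55 within set 1, where 2 of 20 were positive. Adamts5, an aggrecan-cleaving protease (chr16:85858402-85901370), fell from 91.3, 97.3 and 86.5 CPM to 51.3, 53, 55.4 and 51.3 CPM (log2 fold change -0.8 ± 0.15 (SE), adjusted p = 0.0107), or -0.67 with the library set as a covariate (adjusted p = 0.0282) and -0.74 within library set 1. Timp3, an inhibitor of such proteases (chr10:85763157-85812250), fell from 364, 379 and 356 CPM to 189, 185, 265 and 225 CPM (log2 fold change -0.76 ± 0.16 (SE), adjusted p = 0.0154), or -0.57 with the library set as a covariate (adjusted p = 0.0398) and -0.48 within library set 1. Timp3 overlaps Syn3 in the annotation, and the calls of Adamts5 and Timp3 were lost without 135-min replicate 1 or 2, and that of Timp3 also without 135-min replicate 3 or 405-min replicate 1 or 4, at adjusted p-values up to 0.0862. Vcam1, an adhesion molecule (chr3:115812938-115832606), had 68.3, 81.8 and 75.5 CPM and then 56.2, 59.3, 47.2 and 52.7 CPM (log2 fold change -0.48 ± 0.13 (SE), adjusted p = 0.044), or -0.59 with the library set as a covariate (adjusted p = 0.025) and -0.68 within library set 1, and its call was lost without any one of 12 libraries, control replicates 1, 4 and 5 included, at adjusted p-values up to 0.195. With the GC offset Vcam1 did not pass, at -0.18 (adjusted p = 0.582).

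Cyp51 and Elovl6, enzymes of lipid synthesis, fell as well. Cyp51, lanosterol demethylase of the cholesterol pathway (chr5:4080674-4104697), fell from 429, 473 and 487 CPM to 250, 302, 265 and 226 CPM (log2 fold change -0.83 ± 0.16 (SE), adjusted p = 0.0122), or -0.6 with the library set as a covariate (adjusted p = 0.0456) and -0.82 within library set 1. Elovl6, which lengthens fatty acids (chr3:129235304-129341411), fell from 176, 176 and 175 CPM to 114, 116, 105 and 105 CPM (log2 fold change -0.67 ± 0.12 (SE), adjusted p = 0.00873), or -0.69 with the library set as a covariate (adjusted p = 0.00829) and -0.76 within library set 1. The controls had 334 to 524 CPM of Cyp51 and 178 to 222 CPM of Elovl6, close to or including the 135-min values. Of 33 tested genes of cholesterol and fatty acid synthesis 4 (12.1%) were lower (Cyp51, Elovl6, Hsd17b7 and Sc5d), or 3 with the set (Cyp51, Elovl6 and Scd1), and none was higher, with medians of -0.05, -0.4 and -0.41. Of all tested genes 2.82% were lower without the set and 2.01% with it. The calls of Cyp51 and Elovl6 were lost without 135-min replicate 1 or 2, and that of Cyp51 also without 135-min replicate 3 or 405-min replicate 4, at adjusted p-values up to 0.0689. With the GC offset Elovl6 did not pass, at -0.43 (adjusted p = 0.0949). Igf1r, the receptor of insulin-like growth factor 1 (chr7:75097143-75378553), fell from 195, 212 and 193 CPM to 144, 137, 108 and 123 CPM (log2 fold change -0.64 ± 0.14 (SE), adjusted p = 0.0196), or -0.82 with the library set as a covariate (adjusted p = 0.00453) and -0.9 within library set 1. Nfkbia, the NF-kB inhibitor that NF-kB itself induces (chr12:56590396-56593634), had 34.2 to 42.9 CPM in the controls, 67.1, 71.4 and 61.9 CPM at 135 min and 42.8, 37, 33.3 and 31.1 CPM at 405 min (log2 fold change -0.89 ± 0.15 (SE), adjusted p = 0.00724), or -0.81 with the library set as a covariate (adjusted p = 0.017) and -1.02 within library set 1. The Igf1r call was lost without any one 135-min sample or 405-min replicate 4, at adjusted p-values up to 0.11, and that of Nfkbia without 135-min replicate 2, at 0.0612.

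Ribosomal proteins and respiratory subunits had no call, while ribosome biogenesis had more lower genes than the background share without the set and none with it. No gene among the 78 tested cytosolic ribosomal proteins, 74 mitochondrial ribosomal proteins or 68 nuclear-coded subunits of oxidative phosphorylation passed in edgeR in either fit, and many of these genes have copies that share reads. Their median log2 fold changes without the set, with it and in set 1 were -0.23, 0.01 and -0.03 for the first list. They were 0.04, 0.1 and 0.1 for the second and -0.11, 0.05 and 0.06 for the third. Of 47 tested genes of ribosome biogenesis 7 were lower (Ddx21, Dkc1, Nolc1, Nop58, Tsr1, Wdr12 and Wdr43) and none higher without the set (14.9%, against 2.82% of all tested genes), and none passed with it. The log2 fold change was positive in 11 of 47 without the set, in 1 with it and in none within set 1 (beside 50.2% of all genes there), with medians of -0.31, -0.35 and -0.44. Of 39 translation factors 2 were lower (Eif3g and Eif3j), of 20 cytosolic tRNA synthetases 1 was lower (Eprs), and of 34 splicing factors 3 were lower (Hnrnpk, Hnrnpu and Hnrpll, 8.82%), all without the set and none with it.

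The cell cycle genes had no call in DNA replication (48 tested) and 2 higher genes in G2 and mitosis without the set (Cdca3 and Kif2c, of 50) but none with it. In G2 and mitosis 34 of 50 were positive without the set, 47 with it and 47 within set 1, with medians of 0.11, 0.34 and 0.48. The last 2 values both rest on 405-min replicate 3. The mean log2 CPM of the list was 6.54, 6.59 and 6.62 at 135 min. At 405 min it was 6.41, 6.55, 7.08 and 6.87, so replicates 1 and 2 were not above the 135-min samples. Of all tested genes 5416 of 10276 were positive without the set, 5332 with it and 50.2% within set 1. Cdc2a, the older symbol of Cdk1 (chr10:68799383-68815660), had 196, 193 and 236 CPM and then 164, 159, 207 and 158 CPM with log2 fold changes of -0.28, 0.14 and -0.02. Mcm5, a subunit of the replicative helicase, had 147, 127 and 149 CPM and then 287, 218, 93.1 and 181 CPM with log2 fold changes of 0.47, -0.44 and -0.61, and it passed in none. Of 247 tested Zfp zinc finger genes 6 were higher (2.43%, near the share of all genes) and 1 lower, with Zfp445 (chr9:122760141-122775069) the one higher in both fits, from 38.8, 41.8 and 45.7 CPM to 68.4, 66, 84.9 and 75.7 CPM (log2 fold change 0.81 ± 0.18 (SE), adjusted p = 0.0209), or 0.96 with the library set as a covariate (adjusted p = 0.0101) and 1.0 within library set 1. The Zfp445 call was lost without any one 135-min sample or 405-min replicate 4, at adjusted p-values up to 0.117. Gapdh had 225, 206 and 247 CPM and then 361, 235, 226 and 259 CPM with log2 fold changes of 0.26, -0.1 and -0.01.

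**Figure D4:**
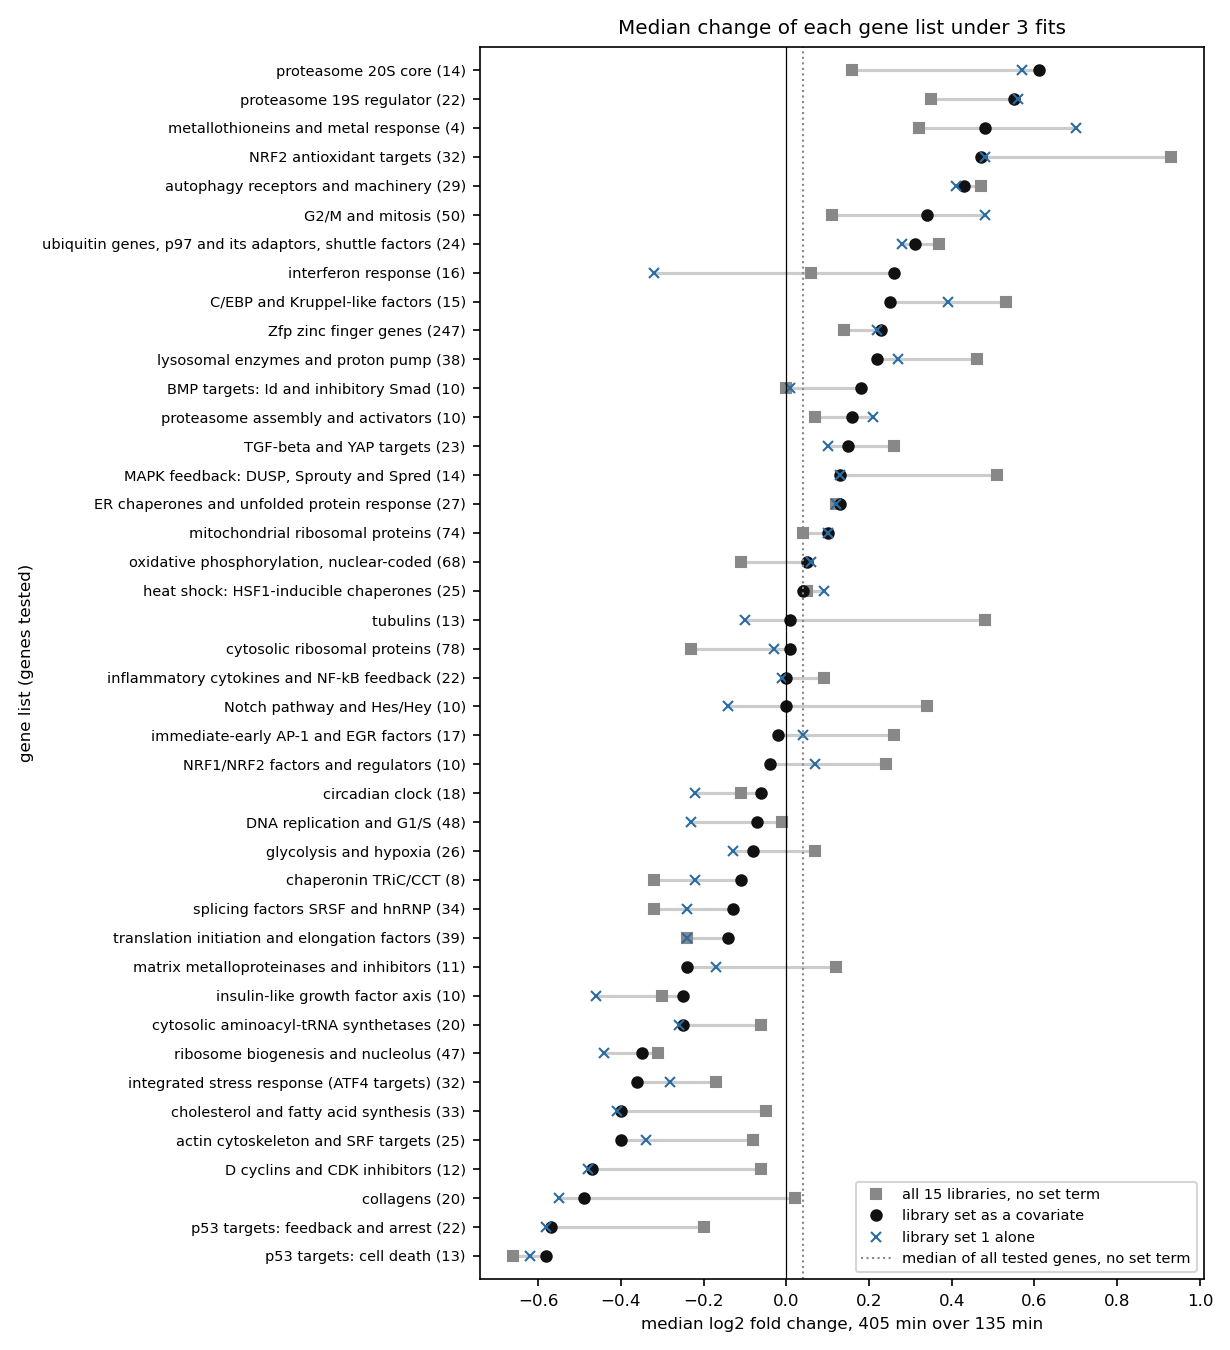
Median log2 fold change at 405 min over 135 min (horizontal axis) of each of the 42 gene lists (vertical axis, genes tested in brackets), without a term for the library set, with the set as a covariate and in set 1 alone. The 20S proteasome is at the top (0.16, 0.61 and 0.57) and the p53 targets of cell death at the bottom (-0.66, -0.58 and -0.62), and lists whose 3 marks spread widely, such as the collagens, move with the set. Lists are ordered by the median with the set.

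The remaining lists were as follows. Tubulins (13 tested), circadian clock genes (18), interferon response genes (16) and metallothioneins (4) had none in either fit. Of 26 genes of glycolysis and hypoxia Ldha was lower without the set. Of 12 D cyclins and CDK inhibitors Cdkn1b was higher in both fits, and 4 (Ccnd1, Ccnd2, Cdk6 and Cdkn1a) were lower with the set, against 2.01% of all tested genes. Of 22 inflammatory genes Nfkbia and Vcam1 were lower in both fits and Ccl7 without the set. Of 10 tested Id and Smad genes Id2 was higher in both fits and Id3 with the set, and of 10 Notch pathway genes Hes1 was higher in both. Of 11 tested genes of matrix metalloproteinases and their inhibitors 2 (Adamts5 and Timp3, 18.2%) were lower in both fits and Mmp11 was higher without the set. Of 10 regulators of the NRF factors Keap1 was higher without the set, and of 10 genes of the insulin-like growth factor axis Igf1r was lower in both fits and Grb10 with the set.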

How the data were processed

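mRNA-seq was run on 15 samples, of which 7 were compared here. Per the labels, libraries came from the Encore Complete kit, and the study's methods add poly(A) selection and reads aligned to mm9 with RefSeq genes. The aligner is not given in the sources used here. The deposited tables hold 20207 genes. Their estimated counts were made by the authors as reads per RefSeq gene without normalization (8.71 to 15.6% of values not whole), and were rounded here to whole numbers. The authors also gave RPKM (reads scaled by gene length and library), a score (RPKM as a Z-score across the genes of a sample) and a ratio (RPKM over its root mean square in the sample), which were not used here. The authors state that they tested with edgeR at a false discovery rate of 0.05.

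The 10276 genes that no sample had at 0 were fitted with edgeR 4.0.16 in R 4.3.3 (TMM, quasi-likelihood test, a mean per group, all 15 samples). The contrast was 405 min minus 135 min and p-values were adjusted over all tested genes. The SE was the size of the log2 fold change over the square root of F. Levels are CPM from TMM-scaled totals, with a prior count of 2 on the log2 scale. Alternatives were the library set as a covariate, set 1 alone, other normalizations and filters, a GC offset (loess, 95.9% of tested genes with a GC content), DESeq2 1.42.0, a replicate block, and each library left out. The library sets were found by splitting the samples at the widest gap between GC slopes, so they are a property of the data and not labelled batches. A gap nearly as wide lay within set 1.

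The genes named are up to 12 in each direction with the largest log2 fold change, and up to 3 in each direction from each of 42 gene lists. They had to pass with and without the set, have no overlap between groups and reach a mean of 5 CPM, and a fixed set of markers was added. List members named only in counts were chosen after their values were seen. The members, lists and markers were chosen with earlier results of these data known. A count of 10 has a counting error of 31.6% and one of 1000 an error of 3.2%. Replicates differed by more than counting error (chi-square per degree of freedom 9.97 to 139 in 9 pairs). Scripts were tested on simulated counts. Promoter sequences are RefSeq's (GRCm38.p6), with 7161 of 10276 tested genes matched by symbol. One gene that the naming rule covers is not reported here.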

Additional observations from a re-analysis of the deposited data

Results flagged for a closer look

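Each of the 86 named genes that were tested was examined for a sample far from the others of its group, in the 4 samples at 405 min and in the 5 controls, by Dixon's test. Of these 172 groups 17 had such a sample, 4 of 86 at 405 min and 13 of 86 in the controls. Chance gives about 1 in 20, so the number at 405 min was near that share. All values are in log2 CPM.

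At 405 min there were 4, of which 3 were replicate 3, the sample of library set 1. In Fam46b it was low at 3.22, against 4.09 to 4.26 in the other samples, and in Bsdc1 low at 4.12, against 4.84 to 4.98. In Cdc2a it was high at 7.69, against 7.31 to 7.36. In Ddit3, replicate 4 was high at 5.27, against 4.85 to 4.91.

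Among the controls there were 13, of which 7 were replicate 2, the control of library set 2. It was high in Rusc1 (1.08), Blvrb (6.06), Psmd13 (6.12) and Mcm5 (8.06), and low in Col8a1 (7.05), Cyp51 (8.39) and Ccng1 (7.89). Replicate 3, the control with the lowest total count, was low in 5 genes, namely Actn1 (8.88), Gclm (4.15), Slc7a11 (-1.1), Psmb3 (5.29) and Ddit3 (3.23). In Slc7a11, the cystine importer, the other controls had 3.05 to 3.4. Replicate 1 was high in Klf10 at 6.29, against 5.98 to 6.05. The part of the library set and of depth in these values was not tested.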

How the results depend on the processing

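Against 230 higher and 290 lower genes, the fit gave 0 and 0 in library set 1 alone (1 sample at 405 min), 1880 and 1324 with only the 7 compared samples (12188 genes tested), 414 and 449 with the GC offset and 799 and 672 with DESeq2. It gave 151 and 248 with filterByExpr and 83 and 124 with no filter, where the median of all genes was -0.11. The share of calls that were higher was 44.2%, against 54.3% with DESeq2 and 58.7% with the 7 samples. With DESeq2's size factors or upper-quartile factors in edgeR, the library set as a covariate, or the set together with the GC offset, the counts stayed within 1.5 times. The fit with the set and without 405-min replicate 3, chosen after seeing the data, gave 4 and 10. The cause of these differences was not tested.

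Leaving out each library in turn gave 19 to 755 higher and 23 to 637 lower genes. The lowest counts came without any one of the 135-min samples (19 and 27 without replicate 1, 19 and 23 without replicate 2, 20 and 41 without replicate 3). Without 405-min replicates 1, 2, 3 and 4 the counts were 78 and 102, 107 and 144, 580 and 602, and 46 and 54. The fit shares its spread among all groups, and without control replicate 2 or 3 it gave 755 and 620 or 672 and 637. Without replicate 1 at 45 min it gave 148 and 196.

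Whether the replicate numbers pair the samples was not settled. Deviations of same-numbered samples correlated at 0.012 to 0.168 over 3 pairs, against -0.161 to 0.132 over 9 pairs of different numbers. With the library set also removed, the same-numbered pairs had 0.134, 0.114 and -0.065, against -0.158 to 0.061 over the 9 pairs. With the replicate block the counts were 5 and 10. Adding the GC offset to it gave 95 and 110, and adding the library set gave 96 and 118.

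Medians of the gene lists moved by more than the spread between replicates in 29 of 42 lists with the library set, in 29 within set 1 and in 22 with the GC offset, but in none with DESeq2 and in 1 with upper-quartile factors. Of 86 named genes tested, 3 lost and 2 gained a call with the set, and 5 (Apaf1, Psma7, Hes1, Elovl6 and Vcam1) lost theirs with the GC offset. Another 4 (Cdkn1a, Dnajb1, Psmd3 and Egr1) gained a call with the GC offset, and 2 (Psmd3 and Egr1) with DESeq2. Changes of sign were met in 12 named genes, none past the threshold in any of the fits concerned. The log2 fold change without the set, then with the set, in set 1, with the block and set, with the set and without 405-min replicate 3, and with the set and GC offset, was 0.32, -0.59, -0.5, -0.58, -0.7 and -0.56 for Actb, 0.47, -0.44, -0.61, -0.38, -0.3 and -0.39 for Mcm5, 0.47, -0.47, -0.48, -0.33, -0.49 and -0.46 for Osgin1, -0.21, 0.25, 0.19, 0.24, 0.3 and 0.14 for Ccng1, 0.05, -0.24, -0.32, -0.31, -0.18 and -0.21 for Zfand2a, and 0.26, -0.1, -0.01, -0.16, -0.2 and -0.08 for Gapdh. With the GC offset, alone and with the block, it was -0.21 and -0.03 for Osgin1, 0.05 and 0.05 for Ccng1, -0.13 and -0.14 for Zfand2a, -0.26 and -0.26 for Gapdh, and 0.13 and 0.15 for Hspa5. Trp53 went from 1.3 to -0.11 with the set, -0.28 in set 1, -0.22 with the block and set and -0.09 with the set and GC offset. Cdc2a went from -0.28 to 0.14 with the set, 0.15 with the block and set, 0.29 with the set and without 405-min replicate 3, and 0.15 with the set and GC offset. Hspa5 went from -0.01 to 0.16, 0.14, 0.33 and 0.15 in the same fits, and to 0.02 with upper-quartile factors. Ddit3 went from 0.43 to -0.12 with the block and set and -0.29 with the set and without 405-min replicate 3, and Myc from 0.41 to -0.05 in set 1. Over the fits without 1 library the range was -0.1 (without 405-min replicate 3) to 0.46 for Fos, -0.07 to 0.05 for Hspa5 and -0.01 to 0.15 for Zfand2a. Depth limits the genes of low count, and with 3 samples at 135 min the estimate of their spread rests on few values.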
